A study of Arabidopsis thaliana with 8 samples.

Results

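The genes described here are 10 *Arabidopsis thaliana* genes that encode B-box (BBX) proteins of light signaling. They were listed by locus, with a rule that uses no measured value, and they are 10 of the 33602 genes in the expression table: *BBX18* (AT2G21320), *BBX19* (AT4G38960), *BBX20* (AT4G39070), *BBX21* (AT1G75540), *BBX22* (AT1G78600), *BBX24* (AT1G06040), *BBX25* (AT2G31380), *BBX28* (AT4G27310), *BBX29* (AT5G54470) and *BBX32* (AT3G21150). Earlier results of these data were known when the list was made. The genes were measured by RNA-seq in soil-grown plants of the Columbia (Col) ecotype, with no mutant or transgenic line among the samples, at 2 weeks of age. The 4 conditions were simulated shade for 1 hour, simulated sun at 1 hour, simulated shade for 4 hours and simulated sun at 4 hours, with 2 libraries each. Simulated shade is light with extra far-red, which lowers the red to far-red ratio without lowering the photosynthetic light, and it began 4 hours after lights came on (ZT 4), so that harvest fell at ZT 5 or ZT 8. Each library came from 5 pooled plants with cotyledons, hypocotyls and roots removed, so that the tissue was leaves and shoot apex.

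B-box proteins carry zinc-binding B-box domains that hold them to other proteins. Those described here lack the CCT domain of CONSTANS, the flowering regulator for which the wider family is best known. Many of them bind HY5, the bZIP transcription factor that promotes light-grown development, or are marked for breakdown by the COP1/SPA ubiquitin ligase, which acts most strongly in darkness and in shade. *BBX20*, *BBX21* and *BBX22* are known in seedlings as partners of HY5 that promote light-grown development. *BBX24* and *BBX25*, *BBX18* and *BBX19*, and *BBX28* and *BBX32* are known mainly as brakes on it, and *BBX24* also promotes elongation in shade.

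Levels are given as CPM, reads on a gene scaled to a common library size, from which the number of reads could be recovered. Libraries held between 3449191 and 4680620 reads, apart from replicate 1 of shade at 4 hours with 1154019, in which 1 read is worth 0.856 CPM. Leaf markers summed to between 19597 and 30046 CPM in every library, the shoot apex markers to between 12.5 and 19.8 CPM, and flower markers to at most 0.996 CPM. Most of the leaf sum came from *RBCS1A*. The leaf marker *LHCB2.1* was lower at 4 hours, with 124 to 233 CPM against 643 to 998 CPM at 1 hour, while *CA1* and *GAPA* were higher. Of the 4 root markers, *EXPA7* and *RHD6* were at 0 throughout and *COBL9* had at most 1 read in a library, and the list summed to between 169 and 314 CPM through *PYK10*, a beta-glucosidase gene. Of the shoot apex markers, *STM* and *KNAT1* were present and *CLV3* had at most 1 read in a library. *IAA29*, an auxin response gene long used as a sign of shade, was higher in shade at 1 hour by 4.42 on the log2(CPM + 1) scale (adjusted p = 0.000141, limma) and at 4 hours by 2.98 (adjusted p = 0.0167). Of 3 other genes known to be induced by shade, *ATHB2* was called at 1 hour (2.83, adjusted p = 0.0145), while *PIL1* (adjusted p = 0.136) and *HFR1* (adjusted p = 0.159) were not, and at 4 hours none of *ATHB2*, *PIL1* and *HFR1* was called (adjusted p = 0.242, 0.508 and 0.789). These 4 genes together summed to 79.6 CPM in replicate 1 and 25.0 CPM in replicate 2 of shade at 4 hours, against 9.04 CPM at most in sun at 4 hours.

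Per kilobase of exon, *BBX24* was the highest of the 10 genes in each condition and *BBX22* the next, and neither overlapped its neighbor in that order. *BBX24* averaged 109 ± 5.96 CPM per kb in shade and 99.4 ± 15.9 CPM per kb in sun at 1 hour, and 69.0 ± 3.92 CPM per kb in shade and 43.3 ± 5.44 CPM per kb in sun at 4 hours (SD, n = 2 each). *BBX22* stood at 36.8 ± 7.15 CPM per kb in shade and 41.2 ± 2.67 CPM per kb in sun at 1 hour, and at 34.3 ± 2.43 CPM per kb in shade and 29.6 ± 1.27 CPM per kb in sun at 4 hours. The order below them changed with condition. *BBX28* was the third of the 10 in shade at 1 hour, with 28.9 ± 1.82 CPM per kb, and the seventh in sun at 4 hours, with 2.40 ± 0.101 CPM per kb. *BBX20* had 0.253 ± 0.0722 CPM per kb in shade at 1 hour, where it was at the floor with the same reads as *BBX32*, and was the fifth in sun at 4 hours, at 3.60 ± 0.836 CPM per kb, where it overlapped *BBX18*. Neighbors whose libraries overlapped included *BBX25*, *BBX28* and *BBX21* in sun at 1 hour, and *BBX28* and *BBX25* in shade at 4 hours.

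*BBX32*, a B-box repressor of light signaling that binds BBX21, gave 6 reads over all 8 libraries and at most 2 in any of them. It was the 1 gene of the 10 that missed the minimum of 1 CPM in 2 libraries, and no difference in it was detectable at this depth. A group with 3 reads or fewer in each library was taken as at the floor and set at the average value of 3 reads, which was between 0.687 CPM in sun at 4 hours and 1.72 CPM in shade at 4 hours. Each of the other 9 genes was tested.

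**Figure D1:**
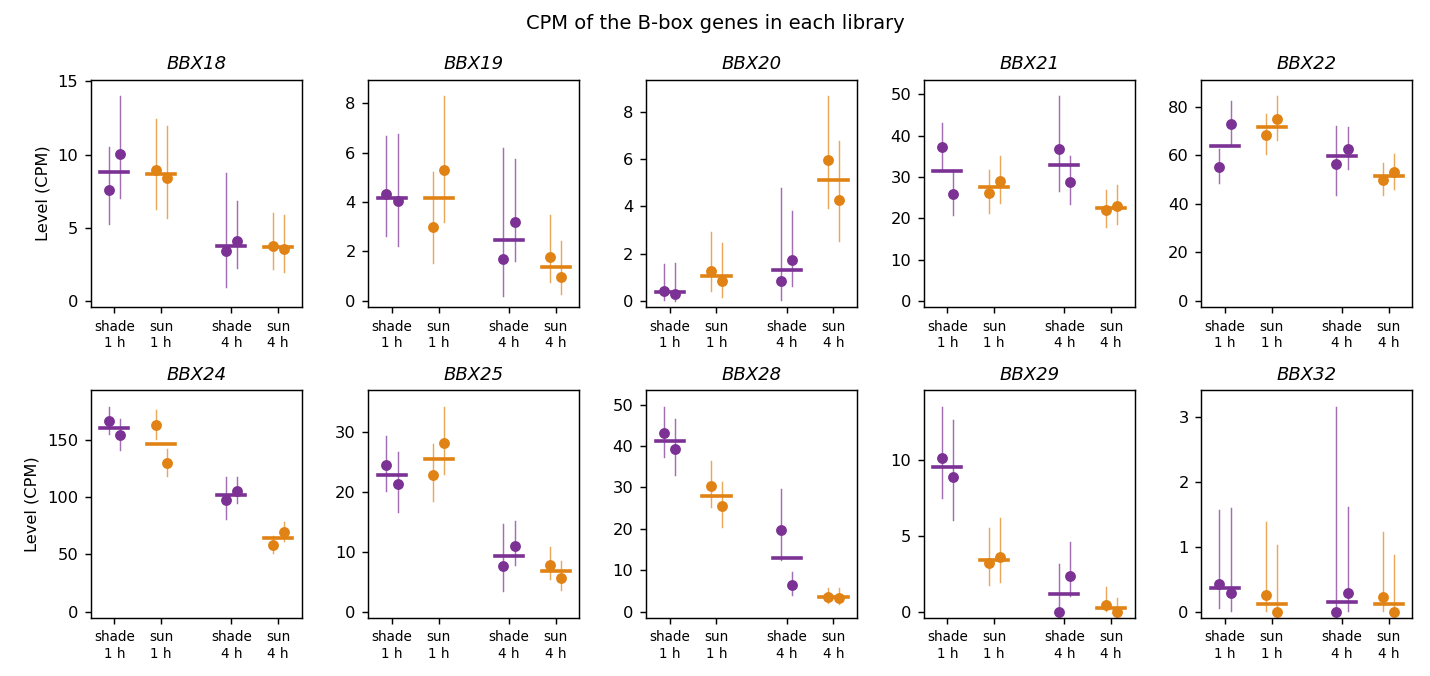
Level in CPM (vertical axis, linear, a separate scale for each gene) of the 10 B-box genes in each library of shade and sun at 1 and 4 hours. Points are libraries, thin lines are 95% Poisson intervals that cover counting error only, and thick bars are means of 2 libraries. *BBX28* has points between 25.4 and 43.0 CPM at 1 hour and between 3.32 and 19.7 CPM at 4 hours, and *BBX20* is highest in sun at 4 hours.

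The clearest difference among these genes was between harvest times. In sun, *BBX24*, *BBX25* and *BBX28* were lower at 4 hours than at 1 hour, 3 of the 9 tested genes, while 1.44% of the 19280 tested genes were called lower and 3.58% were called in either direction (adjusted p under 0.05, limma). None was called higher by limma on all 8 libraries with a pseudocount of 1, nor by edgeR or DESeq2 on the recovered reads. In limma 1 gene, *BBX20*, was higher at an unadjusted p under 0.05. With 1 library left out, the log2 change in sun ran from -1.34 to -1.02 for *BBX24*, from -1.98 to -1.60 for *BBX25* and from -2.83 to -2.58 for *BBX28*. Which of the 9 genes passed the threshold depended on the library left out. That was so also for shade libraries, which cannot change the sizes in sun. The 4 hour libraries lay wholly below the 1 hour libraries for 8 of the 9 genes, against 22.5% of all tested genes, and the median log2 change of the 9 was -1.11, against 0.07 over all tested genes. Plants in sun had no change of light between the harvests, but time of day, hours since the start and harvest moved together and cannot be told apart. In whole leaf and apex tissue, fewer cells that express a gene and less of its RNA per cell cannot be told apart either.

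*BBX28* had the largest called fall in sun. Its protein binds HY5 and keeps it from DNA, and the gene lies at chr4:13675537-13677055 on the plus strand (TAIR10.1), with 2 exons. *BBX28* had 3.53 and 3.32 CPM (16 and 14 reads) in sun at 4 hours, against 30.4 and 25.4 CPM (122 and 91 reads) in sun at 1 hour. The means were 8.14-fold lower at 4 hours, and the change on the log2(CPM + 1) scale was -2.70 (SE 0.37, adjusted p = 0.00150, limma). Its adjusted p stayed under 0.05 in all 18 alternative settings and left-out libraries that were tried, while at a threshold of 0.001 none of the 9 genes was called.

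*BBX24*, also named *STO*, and *BBX25*, also named *STH*, encode closely related proteins that were 72.7% identical over the shorter of them in the reference annotation. In TAIR10.1 *BBX24* lies at chr1:1828340-1829983 on the minus strand and *BBX25* at chr2:13381767-13383470 on the plus strand. *BBX24* had 58.2 and 69.6 CPM in sun at 4 hours, against 163 and 130 CPM in sun at 1 hour. Its mean was 2.29-fold lower, a log2 change of -1.18 (SE 0.16, adjusted p = 0.00126, limma). The call held in 17 of 18 alternatives, and the adjusted p was 0.0578 without replicate 1 of sun at 4 hours. *BBX25* had 7.72 and 5.70 CPM in sun at 4 hours, against 22.9 and 28.2 CPM in sun at 1 hour. It was 3.81-fold lower, a log2 change of -1.79 (SE 0.27, adjusted p = 0.00297, limma). Its adjusted p was 0.0779 without replicate 2 of sun at 1 hour and 0.0852 without replicate 2 of sun at 4 hours. Both genes thus had 1 hour libraries that did not overlap with their 4 hour libraries, by a wider ratio in *BBX25*, although the ratios of the genes were not tested against each other.

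The 250 bases before the annotated start of *BBX24* and *BBX28* are shown because these genes were called lower at 4 hours in both light conditions and because their windows hold letters of clock-related elements. Sequences were read from the TAIR10.1 genome at chr1:1829984-1830233 (minus strand) and chr4:13675287-13675536 (plus strand), with no other annotated gene inside either window. Capitals mark the evening element AAAATATCT in *BBX24*, which begins 52 bases before the gene, and the CCA1 binding site AAAAATCT in *BBX28*, which begins 96 bases before the gene and again, on the other strand, 47 bases before it.
BBX24: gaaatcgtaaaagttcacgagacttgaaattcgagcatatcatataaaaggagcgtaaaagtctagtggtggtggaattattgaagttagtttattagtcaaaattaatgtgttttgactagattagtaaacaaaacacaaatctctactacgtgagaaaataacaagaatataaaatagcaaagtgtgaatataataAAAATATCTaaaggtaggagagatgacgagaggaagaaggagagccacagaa
BBX28: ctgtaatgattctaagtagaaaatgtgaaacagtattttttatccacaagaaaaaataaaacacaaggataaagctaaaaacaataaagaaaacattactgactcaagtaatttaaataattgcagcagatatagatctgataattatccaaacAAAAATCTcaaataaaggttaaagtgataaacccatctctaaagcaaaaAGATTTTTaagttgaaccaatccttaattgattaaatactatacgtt
Both strands of the same window were searched in 27443 genes. The evening element was present in 2.36% of them and in 1 of the 10 genes, and the CCA1 binding site in 6.69% and in 1 of the 10. The G-box CACGTG, a motif that HY5 and the PIF factors can bind, was present in 6.49% of windows and in none of the 10 genes, as far as these 250 bases go. The motifs did not overlap each other in these windows. *BBX25*, which also was lower at 4 hours in both lights, held none of the 3 motifs, and neither did *BBX29*, called in shade. The 10 genes are too few to tell a count of 1 from these shares. Whether the motifs have a part in the levels was not tested.

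In shade, 4 of the 9 genes were called lower at 4 hours than at 1 hour, *BBX24*, *BBX25*, *BBX28* and *BBX29*, where 1.81% of tested genes were called lower and 3.76% in either direction. The 3 genes called in sun were among them. Libraries of 4 hours lay wholly below those of 1 hour for 6 of the 9, against 20.7% of all tested genes, and the median log2 change was -0.65, against 0.03 over all tested genes. With 1 library left out, the log2 change ran from -0.71 to -0.60 for *BBX24* and from -1.45 to -0.98 for *BBX25*. It ran from -2.51 to -1.03 for *BBX28* and from -3.39 to -1.66 for *BBX29*. Whether the genes passed the threshold depended on the library left out, and in some of these fits none did. That was partly so for sun libraries too, which cannot change the sizes in shade.

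*BBX29* (chr5:22114304-22115539, minus strand) encodes a protein close to BBX28, with 58.1% of residues identical over the shorter of them. It had 0 and 2.33 CPM (0 and 8 reads) in shade at 4 hours, against 10.2 and 8.91 CPM (47 and 31 reads) in shade at 1 hour. The 4 hour mean was below the average value of 3 reads, so no fold is given, and the log2 change was -2.53 (SE 0.52, adjusted p = 0.0183, limma). The 0 comes from the library with the fewest reads, where it allows up to 3.16 CPM at 95% by Poisson counting, and without that library the change was -1.66 with an adjusted p of 0.0729. In sun *BBX29* had 0.441 and 0 CPM (2 and 0 reads) at 4 hours, against 3.24 and 3.63 CPM (13 reads in each) at 1 hour, at least 5.0-fold lower when the 4 hour group is set at its floor of 3 reads a library. That change was not called by limma (adjusted p = 0.0667). It was called by edgeR on the recovered reads (adjusted p = 0.0207), and by limma with quantile normalization (0.0383) or on the 4 sun libraries alone (0.00997).

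In shade *BBX28* had 19.7 and 6.39 CPM (23 and 22 reads) at 4 hours, against 43.0 and 39.4 CPM at 1 hour, a mean 3.16-fold lower and a log2 change of -1.77 (SE 0.37, adjusted p = 0.0196, limma). The shade libraries of 4 hours differed from each other by more than their counting intervals, which ran from 12.5 to 29.6 CPM in replicate 1 and from 4.01 to 9.68 CPM in replicate 2. *BBX24* had 97.6 and 106 CPM in shade at 4 hours, against 167 and 154 CPM at 1 hour, a mean 1.58-fold lower (log2 change -0.65, SE 0.16, adjusted p = 0.0370, limma). *BBX25* had 7.71 and 11.04 CPM in shade at 4 hours, against 24.4 and 21.3 CPM at 1 hour, a mean 2.44-fold lower (log2 change -1.22, SE 0.27, adjusted p = 0.0251, limma). For all 4 genes the libraries of the 2 times did not overlap. In shade, *BBX24* kept an adjusted p under 0.05 in 9 of 18 alternatives, *BBX25* in 8, *BBX28* in 14 and *BBX29* in 11.

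**Figure D2:**
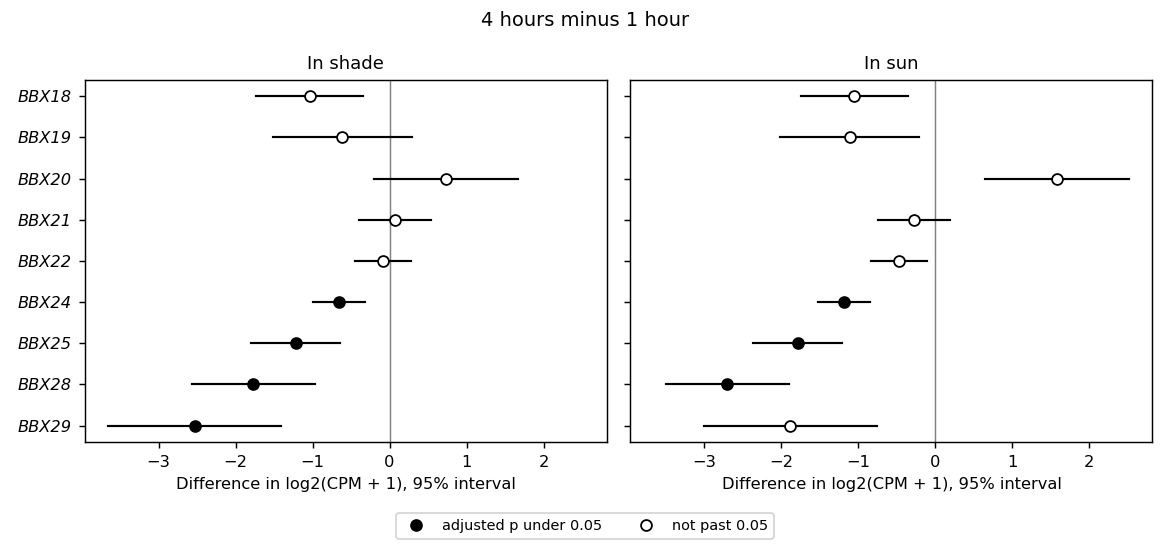
Difference in log2(CPM + 1) of 4 hours minus 1 hour (horizontal axis) for the 9 tested genes, in shade and in sun, with 95% intervals from limma over 2 libraries a group. Filled points have an adjusted p under 0.05. In sun *BBX28* lies at -2.70 and *BBX20*, on the other side of 0, at 1.58.

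*BBX18* and *BBX19*, the closest pair of proteins among the 10 at 76.2% identity, were low. *BBX18* had 3.43 and 4.07 CPM in shade and 3.75 and 3.56 CPM in sun at 4 hours, against 7.57 and 10.06 CPM in shade and 8.97 and 8.37 CPM in sun at 1 hour. Its libraries did not overlap between the times in either light, at log2 changes of -1.04 in shade (adjusted p = 0.0882, limma) and -1.05 in sun (adjusted p = 0.0933), which limma did not call. The change in sun was called by edgeR (adjusted p = 0.0494) and by limma on the 4 sun libraries alone (0.0348). *BBX19*, which interacts with CONSTANS and delays flowering, had 1.71 and 3.20 CPM in shade and 1.76 and 0.950 CPM in sun at 4 hours, against 4.33 and 4.02 CPM in shade and 2.99 and 5.30 CPM in sun at 1 hour. Neither of its time changes was called, with adjusted p of 0.425 in shade and 0.178 in sun (limma). At 4 hours *BBX19* had only 2 and 11 reads in shade and 8 and 4 reads in sun.

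The HY5 partners that promote light-grown development had no called time change in the limma fit of all 8 libraries with a pseudocount of 1, although some alternatives called *BBX20* and *BBX22*. *BBX20* (chr4:18204631-18206684, minus strand), also named *BZS1*, a zinc finger gene that brassinosteroid signaling represses, was the 1 gene of the 9 with higher values at 4 hours in both lights. It had 5.95 and 4.27 CPM (27 and 18 reads) in sun at 4 hours, against 1.25 and 0.837 CPM (5 and 3 reads) in sun at 1 hour, a mean 4.91-fold higher that was not called (log2 change 1.58, SE 0.43, adjusted p = 0.0652, limma). It was called by limma with a pseudocount of 5 (adjusted p = 0.0328) and on the 4 sun libraries alone (0.0155). In shade it had 0.856 and 1.74 CPM (1 and 6 reads) at 4 hours, against 0.433 and 0.287 CPM (2 and 1 reads) at 1 hour, and the 1 hour group was at the floor. *BBX21* (chr1:28365824-28367738, plus strand), whose protein binds the *HY5* promoter, had 22.1 and 23.0 CPM in sun at 4 hours, against 26.2 and 29.0 CPM in sun at 1 hour (adjusted p = 0.562). *BBX22* (chr1:29566863-29568931, plus strand), also named *LZF1*, had 49.8 and 52.9 CPM in sun at 4 hours, against 68.2 and 74.8 CPM in sun at 1 hour, a log2 change of -0.47 with an interval from -0.83 to -0.11 (adjusted p = 0.156, and 0.0331 on the 4 sun libraries alone). The sun libraries of the 2 times did not overlap for these 3 genes, nor for 10707 of the 19280 tested genes, counted in either direction. In shade *BBX21* and *BBX22* did overlap.

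The RNA-seq of the study was made to find genes that simulated shade induced or repressed. With edgeR at an FDR under 0.001, the paper listed more such genes at each time than limma called here. At 0.001 limma called 13 of all tested genes at 1 hour and 1 at 4 hours. A gene that was not called here is thus not shown to lack a shade response. The paper also measured mutants, and reported that *LZF1* (*BBX22*) was needed for shade responses of hypocotyl and petiole. It reported *STO* (*BBX24*) and *STH2* (*BBX21*) as needed for that of the petiole. RNA levels in Col plants do not test these requirements. None of the 9 tested genes passed the adjusted threshold for shade against sun with limma at 1 hour (0.472% of all tested genes did), at 4 hours (0.119%), or averaged over both times (0.628%). edgeR called 0 of them in all 3 comparisons, and DESeq2 called 0 at each time and 1, *BBX28*, in the average (adjusted p = 0.0210). At an unadjusted p under 0.05 there was 1 gene of 9 at 1 hour, *BBX29*, against 6.73% of all tested genes. At 4 hours there were 4 of 9, *BBX21*, *BBX24* and *BBX28* higher in shade and *BBX20* lower, against 8.62%, and in the average these 4 and *BBX29*, which is 5 of 9, against 9.56%. Shade libraries of 4 hours lay wholly above the sun libraries for 4 of the 9 genes, *BBX21*, *BBX22*, *BBX24* and *BBX28*, against 16.9% of all tested genes. At 1 hour this held for 2 of the 9, *BBX28* and *BBX29*, and for 3769 of the 19280 tested genes. *BBX20* lay wholly below at both times, as did 3572 tested genes at 1 hour and 4035 at 4 hours. The median log2 difference of the 9 was 0.04 at 1 hour and 0.51 at 4 hours, against -0.000192 and -0.025 over all tested genes.

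*BBX24* was the gene with the smallest unadjusted p at 4 hours. It averaged 102 ± 5.78 CPM in shade and 63.9 ± 8.02 CPM in sun at 4 hours (SD, n = 2 each), 1.59-fold higher in shade. The log2 difference was 0.67 with a 95% interval from 0.33 to 1.00 and an adjusted p of 0.177 (limma). Neither sun library reached the lower shade library, and with any 1 of the libraries of 4 hours left out the difference lay between 0.54 and 0.79. At 1 hour the shade and sun libraries overlapped, with a difference of 0.14 and an interval from -0.20 to 0.48. *BBX24* overlaps the gene AT1G06045 on the opposite strand over 344 bases, and since the library kit did not mark strand, reads of the 2 genes cannot be told apart there. The same holds for 48 bases that *BBX25* shares with AT2G31390.

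*BBX28* averaged 13.0 ± 9.41 CPM in shade and 3.43 ± 0.145 CPM in sun at 4 hours, 3.81-fold higher in shade, with a log2 difference of 1.48 (95% interval 0.69 to 2.28, adjusted p = 0.194, limma). The size depended on which shade library was kept. It was 2.23 without replicate 2 of shade at 4 hours, and 0.74 without replicate 1, the library with the fewest reads. Each of these fits left 1 shade library at 4 hours. The summed shade check genes were likewise higher in replicate 1 than in replicate 2 (79.6 and 25.0 CPM), and their part in the result was not tested. At 1 hour *BBX28* averaged 41.2 ± 2.60 CPM in shade and 27.9 ± 3.53 CPM in sun, libraries that did not overlap, with a log2 difference of 0.55 and an interval from -0.25 to 1.35. Averaged over both times it was 1.02 (adjusted p = 0.144, limma), and 1.39 without replicate 2 of shade at 4 hours.

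*BBX29* at 1 hour had 10.2 and 8.91 CPM in shade, against 3.24 and 3.63 CPM in sun, 2.78-fold higher in shade (log2 difference 1.25, 95% interval 0.12 to 2.37, adjusted p = 0.674, limma). The 1 hour libraries of shade and sun did not overlap, with shade higher, which was so for 3769 of the 19280 tested genes. The error in this test is shared by all 4 conditions. Averaged over both times, the log2 difference was 0.93 (adjusted p = 0.429, limma), and 1.36 without replicate 1 of shade at 4 hours. At 4 hours the shade and sun libraries of *BBX29* overlapped.

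*BBX20* had lower values in shade instead. It had 0.856 and 1.74 CPM (1 and 6 reads) in shade at 4 hours, against 5.95 and 4.27 CPM (27 and 18 reads) in sun. The shade mean was below the average value of 3 reads, so no fold is given (log2 difference -1.42, 95% interval -2.36 to -0.49, adjusted p = 0.337, limma). At 1 hour it had 0.433 and 0.287 CPM (2 and 1 reads) in shade, against 1.25 and 0.837 CPM (5 and 3 reads) in sun. Shade libraries lay below sun libraries at both times, on few reads. Of the 1344 different 40-base stretches in its exons, 39 also occur elsewhere in the genome, so that reads of the length sequenced could in part be ambiguous. The same was found for 14 of 1397 in *BBX24* and 7 of 893 in *BBX18*, and for none in the other 7 genes.

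*BBX21* averaged 32.8 ± 5.69 CPM in shade and 22.5 ± 0.691 CPM in sun at 4 hours, 1.46-fold higher in shade (log2 difference 0.51, 95% interval 0.04 to 0.98, adjusted p = 0.542, limma). *BBX22* averaged 59.5 ± 4.22 CPM in shade and 51.4 ± 2.20 CPM in sun at 4 hours, and its average shade difference over both times was 0.02 with an interval from -0.24 to 0.27. *BBX25* overlapped between shade and sun at both times. The interval of its average difference ran from -0.27 to 0.55. *BBX18* and *BBX19* also overlapped at both times, with average differences of 0.02 (interval -0.47 to 0.51) and 0.29 (interval -0.35 to 0.93).

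**Figure D3:**
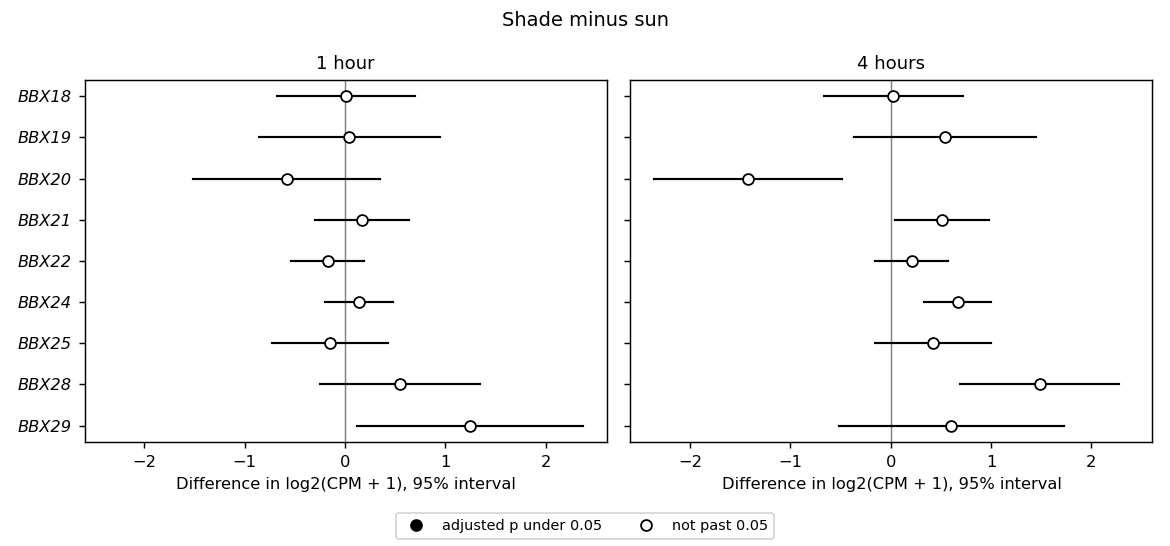
Difference in log2(CPM + 1) of shade minus sun (horizontal axis) for the 9 tested genes at 1 hour and at 4 hours, with 95% intervals from limma over 2 libraries a group. All points are open, since none had an adjusted p under 0.05. At 4 hours *BBX28* lies at 1.48, *BBX24* at 0.67 and *BBX20* at -1.42.

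Whether shade acted differently at 4 hours and at 1 hour was tested by the difference of the 2 shade responses. None of the 9 genes was called by limma, edgeR or DESeq2, where limma called 0.0104% of all tested genes. *BBX24* was the 1 gene with an unadjusted p under 0.05 in limma, against 5.51% of all tested genes, with a difference of 0.53 (SE 0.22, 95% interval 0.05 to 1.00, adjusted p = 0.901). For *BBX28* the difference was 0.93 (adjusted p = 0.910, limma), and 1.67 without replicate 2 of shade at 4 hours, which left 1 library in that group. The same values, read the other way, compare the time changes in shade and in sun, so that a gene called lower at 4 hours in one light and not in the other, such as *BBX29*, was not shown to differ between them.

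The other 22 B-box genes of the annotated family were set beside these 10, and 17 of them could be tested. At 1 hour limma, edgeR and DESeq2 called 0 of them for shade against sun, with 2 at an unadjusted p under 0.05 in limma. At 4 hours 1 was called by each tool, *BBX6* (*COL5*), a CONSTANS-like gene, higher in shade by 1.41 (SE 0.20, adjusted p = 0.0180). In sun, 2 of the 17 were lower at 4 hours, *BBX6* by a log2 change of -1.65 and *BBX16* of -2.26, and 3 were higher, *BBX7* at 2.06, *BBX8* at 0.94 and *BBX13* at 0.81. The same 5 genes were called in shade in the same directions. Their median log2 change in sun was -0.12 over the 17, against -1.11 over the 9.

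**Figure D4:**
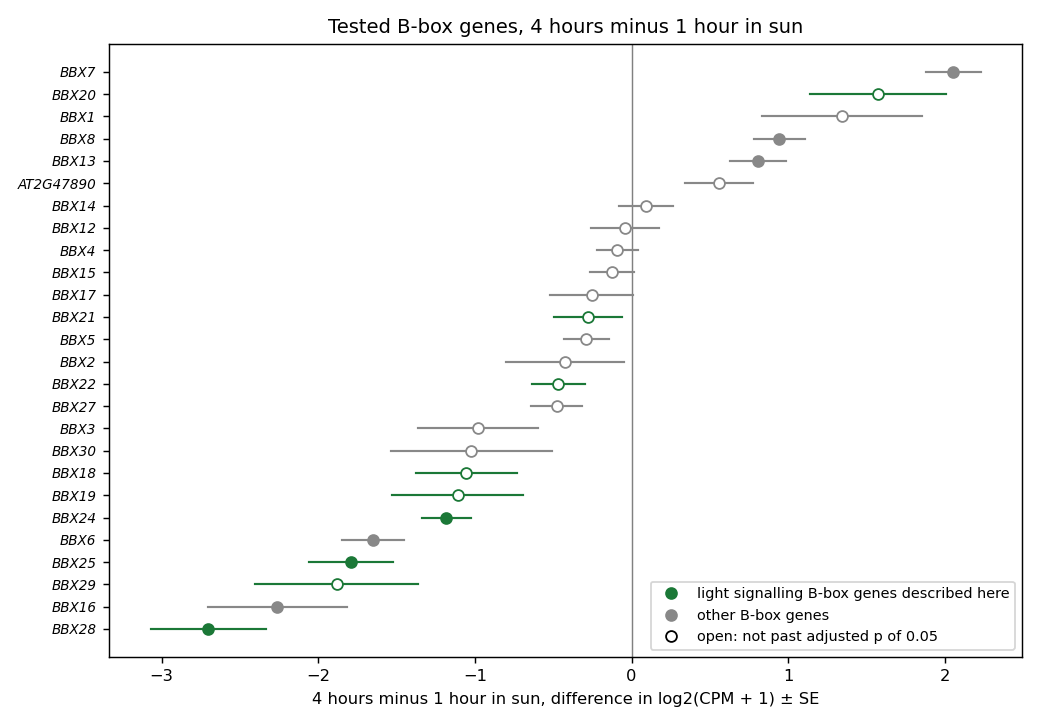
Difference in log2(CPM + 1) of 4 hours minus 1 hour in sun (horizontal axis, bars are SE from limma, 2 libraries a group) for the 26 B-box genes that could be tested, ordered by size. Green points are the light signaling genes described here and grey points the other B-box genes, and open points have an adjusted p of 0.05 or more. *BBX28* is at the bottom at -2.70 and *BBX7* at the top at 2.06.

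Of 7 genes whose proteins bind or degrade B-box proteins, *HY5*, *HYH*, *COP1* and *SPA1* to *SPA4*, 0 were called for shade against sun at either time by limma, edgeR or DESeq2, with 0 at an unadjusted p under 0.05 at 1 hour and 1, *SPA1*, at 4 hours in limma. *SPA1* was lower at 4 hours in sun (log2 change -0.66, adjusted p = 0.0343, limma) and *SPA3* was higher at 4 hours in shade (0.83, adjusted p = 0.0365, limma). edgeR and DESeq2 also called *SPA1*, while *SPA3* was called by edgeR and not by DESeq2. *HY5* had a shade difference of -0.34 at 4 hours, with an interval from -1.05 to 0.38.

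For the 4 genes called in any comparison, the genes most like them were sought over all 8 libraries among 12597 or 12598 genes with a mean of at least 10 CPM, by Pearson's r of log2(CPM + 1). The closest to *BBX24* was AT1G15830 (r = 0.995), followed by AT5G64170 (r = 0.991). The closest to *BBX25* were AT4G12600 (r = 0.991) and *GLK2* (r = 0.985), a transcription factor gene of chloroplast development. The closest to *BBX28* was AT1G10590 (r = 0.986), with *DGD1*, a gene of galactolipid synthesis, the third (r = 0.979). The closest to *BBX29* was *LHCB6* (r = 0.987), which encodes an antenna protein of photosystem II. The 8 libraries share 2 harvest times, which by itself can give high r among genes that differ between them, and the highest of so many values is high by selection.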

How the data were processed

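Poly(A) RNA of 8 pools of leaves and shoot apices was sequenced by the authors as single-end reads of 40 bases, mapped with TopHat to TAIR10 with its annotation, and deposited as CPM per gene. The counting program, the treatment of reads that map more than once and tool versions are not given in the sources used here. The columns of deposited CPM sum to between 986042 and 1015650, and all values were whole multiples of the value of 1 read (tolerance 0.001), from which reads were recovered. All sample columns were used (0 unused).

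Genes with at least 1 CPM in 2 libraries (19280) entered a limma (3.58.1, R 4.3.3) model of the 4 conditions on the log2(CPM + 1) scale with a mean-variance trend, with p adjusted by Benjamini-Hochberg within each contrast at 0.05. Fold changes on this scale understate changes of low genes. Ratios of means use CPM, with groups of 3 reads or fewer per library set at that floor. The test was checked on simulated data. edgeR 4.0.16 and DESeq2 1.42.0 on the recovered reads, other pseudocounts, filters and scalings, a replicate block, fits on 4 libraries and left-out libraries were alternatives. Intervals on reads cover counting error only, since reads carried no molecular identifiers.

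Replicates are pools that the labels give as separate samples. Their counts differed by more than sampling noise (chi-square per degree of freedom between 2.35 and 5.03). The limma p-values rest on the spread between pools shared over the 4 conditions. That spread was drawn toward the spread of genes of similar level, with 4 residual and 9.33 prior degrees of freedom. Gene positions, windows and proteins came from the TAIR10.1 genome and RefSeq annotation by locus, and all 10 genes matched. All 10 genes were named by rule, other B-box genes and partners where called, and similar genes by the highest r. Members and gene lists were chosen with earlier results of these data known.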

Additional observations from a re-analysis of the deposited data

How the results depend on the processing

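Under up to 18 alternatives for each gene, the 7 called time changes kept their direction. Of 47 values that were not called, 13 changed sign at least once. Other filters, the replicate block and the fit on 4 libraries cannot alter the size of a change. Nor can leaving out a library of a condition outside the comparison. Counts of called genes had up to 19 alternatives, with the threshold of 0.001 added. The count of genes called in either direction among the 9 for 4 hours against 1 hour in sun was 3 and became 7 on the 4 libraries of the comparison alone, 5 with edgeR, 0 at an adjusted p of 0.001, and between 2 and 6 with a library left out. In shade it was 4 and became 0 with no filter, 0 on 4 libraries, 2 with DESeq2, 0 at 0.001, and between 0 and 5 with a library left out. For shade against sun it was 0 at 1 hour under every alternative, between 0 and 1 at 4 hours, in the average and in the difference of responses with a library left out, and 1 in the average with DESeq2. Over all genes, 4 libraries alone gave 2180 calls in sun, against 691, and 157 in shade, against 724. With a library left out its group held 1 library, and the number called over all genes shifted as well. The cause of these shifts was not tested.

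With the replicate block the counts were 0 in the 4 shade comparisons, 3 in sun and 4 in shade, as without it, and the block changed no call among the 9 genes. Residuals of libraries with the same number correlated at 0.103 at 1 hour, -0.0632 at 4 hours, -0.0418 in sun and 0.0157 in shade, so the numbers were not taken as pairs. Depth limits *BBX32*, *BBX20*, *BBX29* and *BBX19*, with 0 to 8 reads in each library of at least 1 condition. *BBX18* had 4 reads in replicate 1 of shade at 4 hours.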
